A study of Sus scrofa with 6 samples.

Results

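One two-colour microRNA array was examined, on which the RNA of the deciduous canine tooth germ of embryonic day 60 (stained with Cy5) was hybridised together with that of the deciduous premolar tooth germ of embryonic day 50 (stained with Cy3). It is 1 of the 6 arrays of a study of miniature pig (Sus scrofa) tooth germs, and all of its 742 experimental probes were members, each printed as 4 spots. The study covered the incisor, canine, premolar and molar germs, 4 tooth types in all, on embryonic days 40, 50 and 60, with 1 RNA for each of the 12 conditions. The title of the day-50 incisor and canine array gives day 60 for the incisor, and day 50 was used, as in its other labels. The germs were dissected under a microscope, and pooling of embryos is neither stated nor denied in the labels. No genetic change or treatment is given for any group. Because 1 RNA stands for each condition, no test could be made within the array: the SD given beside a ratio is the spread of the 4 spots of a probe and covers technical error only. Tooth type, day and dye differ together between the 2 RNAs and cannot be told apart on this array. In a whole germ, a lower signal from fewer cells of a type cannot be told apart from less RNA per cell.

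MicroRNAs are short RNAs that guide an Argonaute protein to messenger RNAs and lower their translation or stability. Pairing rests mainly on the seed, the stretch near the 5′ end, so microRNAs that share a seed form a family with overlapping targets. A tooth germ consists of an epithelial enamel organ and the neural crest mesenchyme beneath it, and different germs of a jaw reach the same stage on different days. Members of the miR-200 family and miR-205 are typical of epithelium, miR-199 and miR-214 of mesenchyme, and miR-133 of skeletal muscle.

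The target sequences of the probes, as deposited with the array, are shown first for the miR-181 family, since it holds most of the probes that were higher in the canine. They are written 5′ to 3′, with bases 2 to 8, the seed, in capitals. The 5p probes share 1 seed and differ in the bases behind it or in length. The 3p probe comes from the other strand of the precursor.
ssc-miR-181a: aACAUUCAacgcugucggugaguu
ssc-miR-181b: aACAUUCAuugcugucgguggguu
ssc-miR-181c: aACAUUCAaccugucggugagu
ssc-miR-181d: aACAUUCAuuguugucgguggguu
miR-181a-5p-39722: aACAUUCAacgcugucg
miR-181a-5p-39048: aACAUUCAacgcuguc
miR-181b-5p-34723: aACAUUCAuugcuguc
miR-181a-3p-3133: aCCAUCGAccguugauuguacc

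Next come the sequences of the microRNAs that were lower in the canine by the most, and of the other mature pig microRNAs that passed 2-fold. The miR-133a and miR-133b targets differ at their ends and lie 1 base apart in register, so the capitals fall on different bases of a shared stretch. PN-300-3p-13997 is contained whole in PN-381-3p-1991, and these probes are therefore not independent readings.
ssc-miR-133b: uUUGGUCCccuucaaccagcuau
ssc-miR-133a: uUGGUCCCcuucaaccagcug
PN-381-3p-1991: uAUACAAGgacaagcucucugu
PN-300-3p-13997: uAUACAAGgacaagcucucu
ssc-miR-574: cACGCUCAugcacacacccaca
ssc-miR-127: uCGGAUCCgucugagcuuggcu
ssc-miR-19b: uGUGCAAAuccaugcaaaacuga
ssc-miR-1285: cUGGGCAAcauagcgagaccccgu

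The probes fell into 188 for mature pig microRNAs (names beginning with ssc), 193 custom probes with a microRNA name, 157 named PN and 204 named PC. The sources used here do not say what PN and PC stand for. Detection in an RNA required a mean signal over 3 SD (from blank spots) above a surface fitted through those spots; such probes are called above background. By this measure 282 probes (91 mature pig) were above background in the canine and 732 (187 mature pig) in the premolar. Every probe above background in the canine was so in the premolar as well, 450 were so only in the premolar, and 10 in neither. The channels differed in their empty signal: blank spots had a median intensity of 59.8 in the canine channel and 261 in the premolar channel. In addition, 17 spike control oligos that were not above background in the canine read 27.8 to 64.2 units above it in the premolar, where the limit for detection was 31.4 units. The signal of 329 probes (101 mature pig) in the premolar exceeded the highest of these oligos. The surplus of probes detected in the premolar is therefore given as a count of this channel and not as microRNAs that the canine lacked.

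Most of the probes with signal in both germs differed by less than 2-fold. Among the 282 probes above background in both RNAs, the log2 ratio of canine over premolar had a median of 0.10, the middle 80 percent ran from -0.55 to 0.75, and 73.8% lay within 0.5 of zero. Across all 742 probes the median was 0.01 and 89.8% lay within 0.5. The normalisation holds that median near zero, and the 450 probes above background only in the premolar lay within 0.5 in 99.6% of cases, so these values do not measure how alike the germs were. Spots of a probe had a median SD of 0.15 on the log2 scale.

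Of the 8 most abundant mature pig probes, all but 3 had a mean ratio of less than 2-fold between the germs. ssc-miR-16 had a normalised log2 intensity of 13.93 in the canine and 13.98 in the premolar. For ssc-miR-1308 the levels were 13.87 in the canine and 13.50 in the premolar. ssc-miR-125b read 11.99 in the canine and 11.83 in the premolar. ssc-miR-130a had a ratio of -0.48 and ssc-miR-140*, an arm of a microRNA known from cartilage, of 0.56. The exceptions among these 8 were ssc-miR-214, ssc-miR-1285 and ssc-miR-181a, which are described below.

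**Figure D1:**
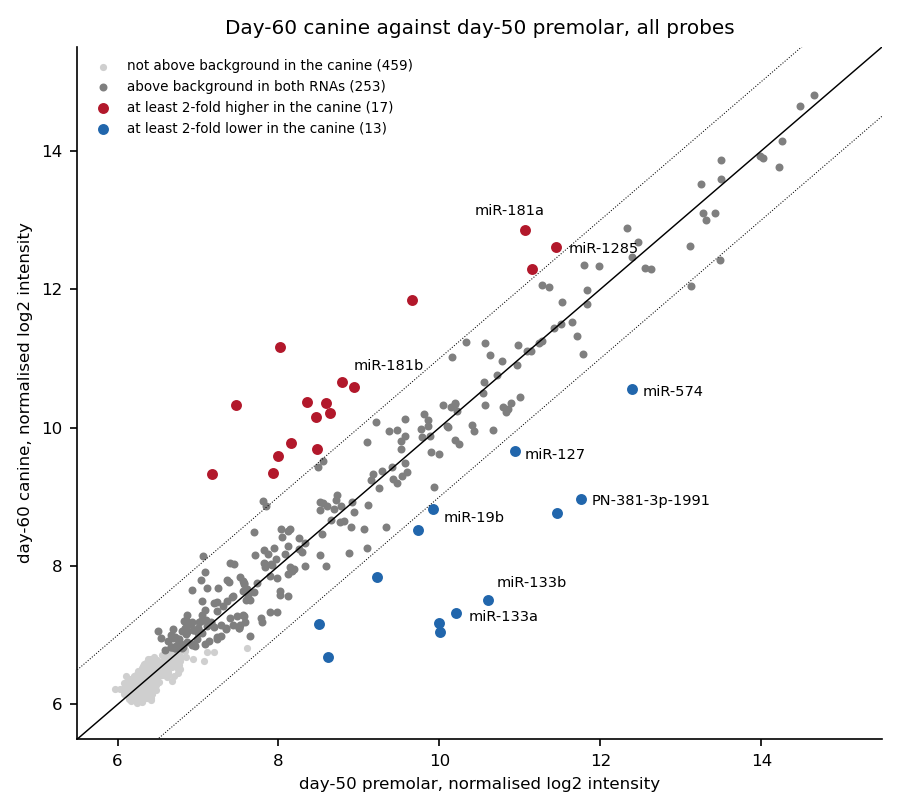
Normalised log2 intensity of the 742 probes in the day-60 canine (vertical axis) against the day-50 premolar (horizontal axis), 1 point a probe, mean of 4 spots. The solid line marks equal levels and the dotted lines a 2-fold difference; the 17 red probes lie above the upper dotted line and the 13 blue probes below the lower one.

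A size rule picked probes above background in at least 1 RNA whose 4 spots all differed by 2-fold or more with the same sign. By this rule 17 probes were higher in the canine (2.32% of the 732 detected) and 13 were lower (1.78%). Of these, 4 of the higher and 5 of the lower probes were mature pig probes, 8 and 4 were custom probes, and 5 and 4 were PN probes. None was a PC probe. All 30 also exceeded the highest silent control oligo in the premolar. The higher probes held 7 different seeds and the lower ones 10. All 30 are shown in the plot of single spots. Of them, 23 follow from the rule for naming probes, and the other 7, all PN probes, are named after their values were seen.

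The miR-181 family stood highest in the canine. Its members act in lymphocyte differentiation and are expressed in many embryonic tissues. ssc-miR-181a had a log2 intensity of 12.86 in the canine and 11.06 in the premolar, a 3.47-fold ratio (log2 1.80, spot SD 0.10). ssc-miR-181b read 10.65 in the canine and 8.78 in the premolar, a log2 ratio of 1.87 (spot SD 0.22). For ssc-miR-181c the levels were 10.38 in the canine and 8.36 in the premolar, a log2 ratio of 2.02 (spot SD 0.14). All 4 spots of each of these probes had log2 ratios of 1.71 or more.

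Of the 12 probes with the seed ACAUUCA, 10 met the size rule and 11 had a ratio above zero, with a median log2 ratio of 1.78 against 0.01 for all probes. The probes miR-181b-5p-24202 (1.77), PN-181b-5p-4329 (1.69), PN-181c-5p-27101 (1.62) and miR-181d-5p-4330 (1.58) lay close to the mature pig probes. miR-181c-5p-1684, which is 2 bases longer than ssc-miR-181c and contains it, read 11.85 in the canine and 9.66 in the premolar (log2 ratio 2.19). The other two probes with this seed did not meet the rule. Of these, ssc-miR-181d had levels of 7.79 in the canine and 7.04 in the premolar, a log2 ratio of 0.75 (spot SD 0.23).

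Shortened miR-181 targets gave unequal ratios. miR-181a-5p-39722, with 17 bases, had the highest ratio of the array, with 11.16 in the canine and 8.02 in the premolar (8.81-fold, log2 3.14, spot SD 0.10). miR-181a-5p-39048, with 16 bases, read 10.32 in the canine and 7.47 in the premolar (7.23-fold, log2 2.85, spot SD 0.04). Both targets lie within that of ssc-miR-181a, whose log2 ratio was lower by 1.34 and 1.06. The 16-base miR-181b-5p-34723, which lies within ssc-miR-181b, read 6.21 in the canine and 6.22 in the premolar and was not above background in the canine. Over all 118 pairs in which one detected target contained another, log2 ratios differed by a median of 0.13 and 112 pairs lay within 0.5. The 4 widest of these pairs were miR-181 pairs, up to 1.88 apart.

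The other strand of the miR-181a precursor was higher too. miR-181a-3p-3133 had 9.34 in the canine and 7.18 in the premolar, a log2 ratio of 2.16 with the widest spot SD of the higher probes (0.33). Its spots ran from 1.84 to 2.59. The 3p probe of miR-181c, miR-181c-3p-6759, read 6.57 in the canine and 6.74 in the premolar and was not above background in the canine.

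**Figure D2:**
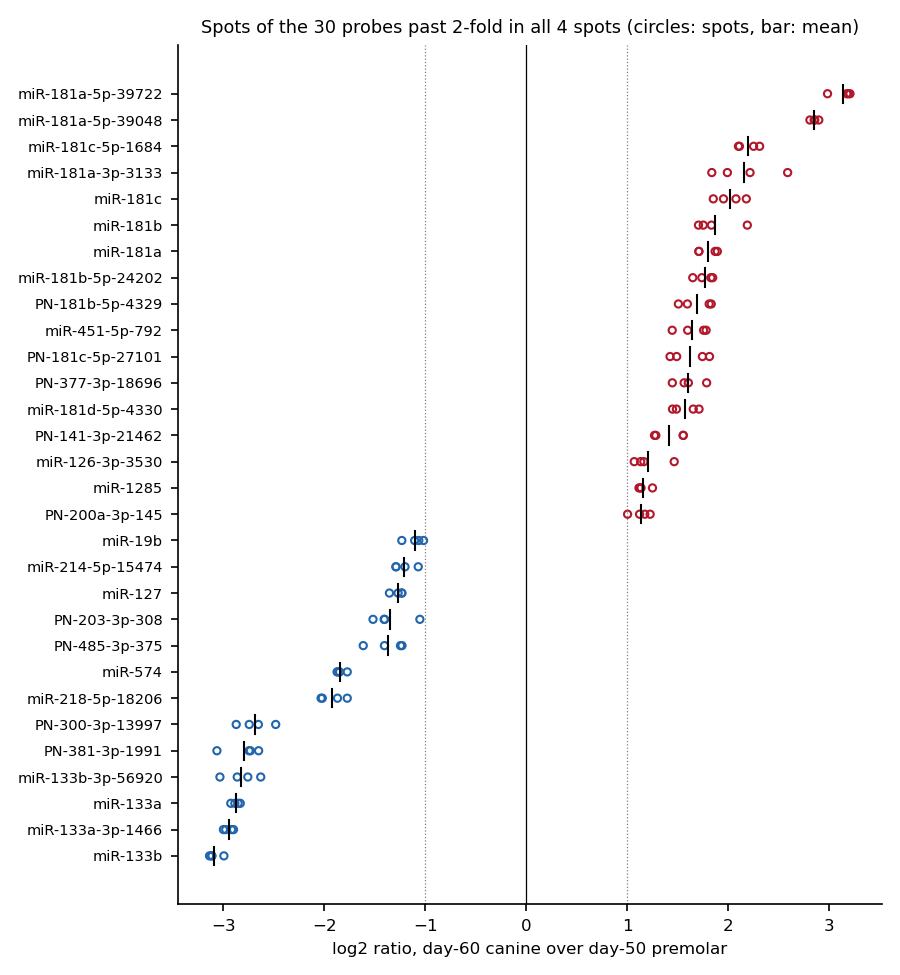
Log2 ratio of canine over premolar in each of the 4 spots (circles) of the 30 probes that met the size rule, with the mean as a bar; dotted lines mark a 2-fold ratio. The miR-181 probes lie between 1.42 and 3.21 and the miR-133 probes between -3.14 and -2.63.

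Among the other higher probes were 1 blood cell and 1 endothelial marker, while the rest of either list was not higher as a group. miR-451-5p-792, a microRNA of red blood cells, had 10.59 in the canine and 8.94 in the premolar (3.13-fold, log2 1.65, spot SD 0.16). It was the only 1 of 9 probes on the blood cell list above background in the canine. The miR-142, miR-144 and miR-486 probes of that list were not above background there, and over the 9 probes 4 ratios lay above zero and 5 below, with a median of -0.01. miR-126-3p-3530, of endothelium, read 9.69 in the canine and 8.48 in the premolar (2.31-fold, log2 1.21). Its partner strand, miR-126-5p-1328, was not above background in the canine (log2 -0.27). The one other endothelial probe above background in both RNAs, miR-296-3p-176, named after its value was seen, had -0.20. The 6 endothelial probes split into 3 above and 3 below zero, with a median of -0.04. Summed over its probes, the blood cell list had a log2 intensity of 11.11 in the canine and 10.20 in the premolar, and the endothelial list 10.45 in the canine and 9.94 in the premolar. What part blood or vessels in the dissected germs have in these ratios was not tested.

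Both probes with the seed AACACUG, of the epithelial miR-200a and miR-141, met the size rule. PN-200a-3p-145 had 12.29 in the canine and 11.16 in the premolar (log2 1.13), and 1 of its spots lay at 1.00. PN-141-3p-21462 read 9.35 in the canine and 7.94 in the premolar (log2 1.42). The 6 probes with the related seed AAUACUG, of miR-200b, miR-200c and miR-429, also had ratios above zero, but with a median of 0.25 none met the rule. The miR-205 probes had ratios nearer zero: ssc-miR-205 had 11.26 in the canine and 11.28 in the premolar, and miR-205-5p-304 had 12.29 in the canine and 12.63 in the premolar. PN-203-3p-308, of the keratinocyte microRNA miR-203, was lower, with 7.16 in the canine and 8.51 in the premolar (log2 -1.35). With PN probes added, 2 of the 22 epithelial probes met the rule as higher and 1 as lower, against 2.32% and 1.78% of all detected probes, and their median was 0.04.

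ssc-miR-1285 was the fourth mature pig probe that was higher, with 12.61 in the canine and 11.46 in the premolar (2.23-fold, log2 1.16, spot SD 0.06). PN-377-3p-18696 read 9.59 in the canine and 7.99 in the premolar (log2 1.60). It was the only higher probe among 64 that carry names from the DLK1-DIO3 cluster, an imprinted region that codes for many microRNAs, once PN probes were counted.

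The lowest ratios belonged to miR-133, a microRNA of skeletal and heart muscle. ssc-miR-133b had a log2 intensity of 7.52 in the canine and 10.61 in the premolar, 8.51-fold lower (log2 -3.09, spot SD 0.06). ssc-miR-133a read 7.33 in the canine and 10.20 in the premolar, 7.33-fold lower (log2 -2.87, spot SD 0.04). miR-133a-3p-1466 (log2 -2.95) and miR-133b-3p-56920 (log2 -2.82) gave like ratios. Their targets overlap almost whole, so these are not independent readings. Before normalisation, ssc-miR-133b lay 46.6 intensity units above background in the canine and 1293 in the premolar. The offset added to the signal pulls such ratios toward zero.

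The other skeletal muscle microRNAs were at or near background. Of 11 probes on the muscle list, 4 were above background in the canine, and these were the 4 miR-133 probes. ssc-miR-1 had 6.29 in the canine and 6.17 in the premolar, and ssc-miR-206 had 6.40 in the canine and 6.61 in the premolar, none above background in the canine. In the premolar these readings were near the bottom of the range as well. The passenger strand ssc-miR-133a* read 6.40 in the canine and 6.43 in the premolar. Summed over the list, the log2 intensity was 10.21 in the canine and 12.38 in the premolar, and the part of muscle in this result was not tested.

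PN-381-3p-1991, from the DLK1-DIO3 cluster, followed, with 8.97 in the canine and 11.76 in the premolar (6.95-fold lower, log2 -2.80, spot SD 0.18). PN-300-3p-13997, nested within it, read 8.77 in the canine and 11.46 in the premolar (log2 -2.69). ssc-miR-127, of the same cluster, had 9.66 in the canine and 10.94 in the premolar (2.42-fold lower, log2 -1.27, spot SD 0.06). PN-485-3p-375, also of the cluster, had 7.85 in the canine and 9.22 in the premolar (log2 -1.37). With PN probes counted, 17 of the 64 probes with names on the cluster's list were above background in the canine. Of these, 14 had ratios below zero and 3 above, with a median of -0.40 against 0.10 for all probes above background in both RNAs. By the size rule 3 were lower and 1, PN-377-3p-18696, was higher. Of all 282 probes above background in both RNAs, 12 were lower and 17 higher. PN-494-3p-3917, at 1.02, also had a ratio above zero. The name miR-300 was not on the list.

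ssc-miR-574 had 10.55 in the canine and 12.39 in the premolar (3.58-fold lower, log2 -1.84, spot SD 0.05). ssc-miR-19b, of the miR-17-92 cluster, read 8.82 in the canine and 9.92 in the premolar (log2 -1.10, spot SD 0.09), but kept to the size rule in only 1 of 4 other settings of background and normalisation, while ssc-miR-19a, with the same seed, was not above background in the canine (6.55 in the canine and 6.61 in the premolar). miR-214-5p-15474, of a mesenchymal microRNA, had 8.53 in the canine and 9.74 in the premolar (log2 -1.21). Its partner strand lay just outside the rule: ssc-miR-214 had 12.42 in the canine and 13.48 in the premolar (log2 -1.06), and 1 of its spots missed a 2-fold ratio. miR-214-3p-314 (-1.09), ssc-miR-193a-3p (1.12), miR-1308-3p-49420 (1.08) and PN-494-3p-3917 (1.02) also had a mean past 2-fold with at least 1 spot short of it.

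miR-218-5p-18206, as the files name it, was the single listed probe not above background in the canine. Its level was 6.69 in the canine and 8.61 in the premolar, which gives at least a 3.54-fold lower level in the canine when set against the dimmest signal detected there. The premolar was read in the left column of the array file, and this probe was higher in the left column on all 6 arrays, with a mean log2 right over left of -2.83 on the other 5. The part of the column or dye in its ratio was not tested.

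Families fell on both sides of zero with small ratios. All 6 probes of the miR-320 seed (AAAGCUG) had ratios below zero, with a median of -0.54 and a range of -0.61 to -0.47. All 7 probes of the miR-17 seed (AAAGUGC), of a family that promotes proliferation, had ratios below zero with a median of -0.33. The let-7 seed (GAGGUAG), whose family increases with differentiation, had 12 of 13 probes above zero with a median of 0.15. Of all 282 probes above background in both RNAs, 167 had ratios above zero and 115 below, with a median of 0.10. The let-7 median lay near that value, and the median spot SD over all probes was 0.15. Near-identical targets can bind the same probes, so members of a family are not independent readings.

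The family of miR-15, miR-16 and miR-195 (seed AGCAGCA) was split. ssc-miR-195 had 12.06 in the canine and 11.27 in the premolar, and miR-195-5p-6765 had 10.09 in the canine and 9.21 in the premolar. PN-15a-5p-24695 lay on the other side, with 11.33 in the canine and 11.71 in the premolar. The median over the 13 probes was -0.05, and none met the size rule.

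Mesenchymal markers lay on both sides of zero. ssc-miR-199a-5p had 11.07 in the canine and 11.78 in the premolar (log2 -0.71), and ssc-miR-199a-3p had 10.04 in the canine and 10.40 in the premolar. ssc-miR-145 read 10.35 in the canine and 10.19 in the premolar, and ssc-miR-143 read 8.51 in the canine and 8.12 in the premolar. Of the 44 probes on the mesenchymal and skeletal list, 2 met the rule as lower, against 1.78% of all detected probes, with a list median of -0.02, and its extremes were ssc-miR-22-3p (0.73) and miR-218-5p-18206. Among the neural probes, miR-138-5p-826 had the lowest ratio (-0.77), and ssc-miR-9-1 and ssc-miR-124a were not above background in the canine. Over all their pig and custom probes, the lists other than miR-181 had medians between -0.30 and 0.19. Taken over the probes above background in both RNAs, with PN probes added, medians were -2.91 for skeletal muscle (the 4 miR-133 probes), 1.65 for blood cell (1 probe), 0.50 for endothelial (2 probes) and -0.33 for the miR-17 family (7 probes).

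**Figure D3:**
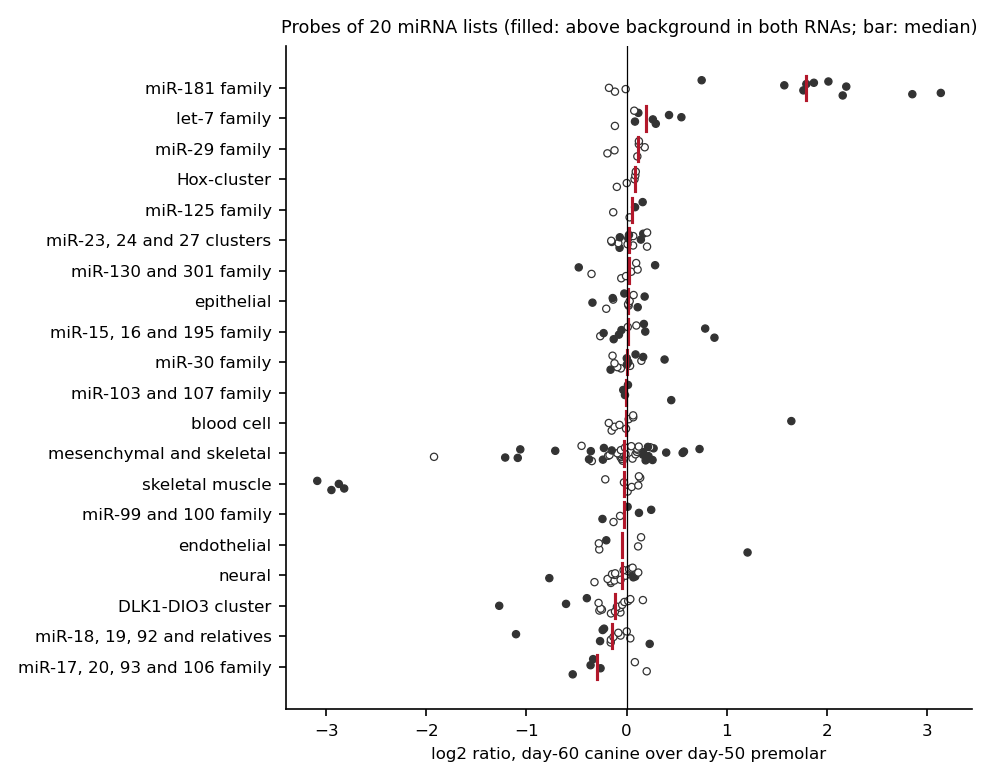
Log2 ratio of canine over premolar for every probe of 20 microRNA lists, without PN and PC probes; filled circles are above background in both RNAs, open circles are not, and the bar is the median. The miR-181 list has a median of 1.80, the let-7 list 0.19 and the miR-17 family list -0.30.

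The ratio was weakly related to the make-up of the targets. Over the 732 detected probes, Pearson's r with length was -0.01, with GC content -0.03 and with the share of C -0.07, and Spearman's rho was 0.00, 0.00 and -0.06. With the mean log2 level r was 0.04 and rho 0.14, and with the mean right over left ratio of the other arrays r was -0.09 and rho 0.12. These are descriptions across probes, many of which overlap in sequence. Of the 732, 450 were above background only in the premolar, and 99.6% of these lay within 0.5 of zero. Weak relations over the whole set therefore do not show that the ratio is unrelated to these features. The 4 control probes for 5S ribosomal RNA, which did not enter the normalisation, had log2 ratios of 0.90 to 1.71, higher in the canine. The spike control oligos, likewise left out of it, had log2 ratios from -1.07 (PUC2PM-20B) to 3.67 (Ctr09-3M05). The largest of these exceeds the highest probe ratio of the array (3.14). The part of RNA amount or dye in these ratios was not tested.

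The canine and premolar RNAs of the other arrays were then set beside these ratios, since the size rule did not use them. They were the canine of days 40 and 50, both Cy3, and the premolar of days 40 and 60, both Cy5, so that the dyes lie the other way round than on the array described. This choice was made after the data had been seen. Of 656 probes detected in at least 3 of 12 RNAs, 14.6% had both canine RNAs above both premolar RNAs and 11.7% had both below. Of the 13 probes lower in the day-60 canine, 8 had both other canine RNAs below both premolar RNAs and 2 had them above. Of the 17 higher probes, none had them above and 2 had them below. These probes are not independent readings. The 8 include all 4 miR-133 probes, the 13 include PN-300-3p-13997 nested in PN-381-3p-1991, and 10 of the 17 share the miR-181 seed. Including the 2 RNAs of the array, so that all 3 days of each tooth type were compared, 8 of the 13 lay below (2.74% of the 656) and 0 of the 17 above (2.9%). The size rule used 2 of these 6 RNAs, so nothing is read from the last counts.

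miR-133 was lower in every canine RNA than in every premolar RNA. On days 40, 50 and 60, ssc-miR-133b read 6.84, 9.14 and 7.52 in the canine, against 10.74, 10.61 and 10.22 in the premolar. For ssc-miR-133a the levels were 6.72, 8.83 and 7.33 in the canine, against 10.28, 10.20 and 9.77 in the premolar. Over the RNAs of the other arrays, the difference of means was -2.49 for ssc-miR-133b, and the median over the 4 miR-133 probes was -2.24. In the incisor and molar, ssc-miR-133b stayed between 6.33 and 7.55.

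Of 61 probes with names on the DLK1-DIO3 list, PN probes included, 21 had both other canine RNAs below both other premolar RNAs and 4 had them above, against 11.7% and 14.6% of all 656. In the limma fit described below, 29 of the 61 had a canine minus premolar difference above zero and 32 below. ssc-miR-127 read 10.04, 9.50 and 9.66 in the canine on days 40, 50 and 60, against 11.47, 10.94 and 11.21 in the premolar. PN-381-3p-1991 read 9.76, 6.69 and 8.97 in the canine, against 11.11, 11.76 and 11.59 in the premolar. For these probes, chosen since they met the size rule, the tooth types did not overlap. PN-377-3p-18696 went the other way on the other arrays, with 8.08 and 7.32 in the canine of days 40 and 50, against 9.90 and 11.17 in the premolar of days 40 and 60.

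miR-181 levels overlapped between the tooth types. ssc-miR-181a read 11.33, 12.75 and 12.86 in the canine on days 40, 50 and 60, against 11.64, 11.06 and 11.98 in the premolar. For ssc-miR-181b the levels were 9.04, 10.73 and 10.65 in the canine, against 8.94, 8.78 and 9.78 in the premolar. For both, the canine of day 40 lay within the range of the premolar, and the canine of days 50 and 60 above it. On the other arrays the mean was higher in the canine for all 10 higher probes of this seed, by a median of 0.50, and none of the 10 was without overlap. There the canine RNAs were all Cy3 and the premolar RNAs all Cy5. In the limma fit described below, which has terms for dye and day, leaving out the array put all 10 below zero. These differences ran from -1.76 (miR-181a-5p-39048) to -0.0768 (PN-181c-5p-27101).

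Some ratios of the array were not shared by the other RNAs, or only in part. Of the 17 higher probes, 12 had a higher canine mean on the other arrays and 5 a lower one. The 12 include all 10 of the miR-181 seed. Of the 13 lower probes, 10 had a lower canine mean there and 3 a higher one. Among all 656 probes, 350 had a higher and 306 a lower canine mean. ssc-miR-19b read 10.86, 12.48 and 8.82 in the canine on days 40, 50 and 60, against 11.54, 9.92 and 9.06 in the premolar, so that the day-50 canine was the highest of the 6. ssc-miR-574 read 13.39, 10.94 and 10.55 in the canine, against 13.23, 12.39 and 12.19 in the premolar. It was thus lower in the canine on days 50 and 60 but not on day 40. ssc-miR-1285 read 10.84, 11.49 and 12.61 in the canine, against 11.95, 11.46 and 11.73 in the premolar. For miR-218-5p-18206 and PN-203-3p-308 the other canine RNAs were above the other premolar RNAs, opposite to the array.

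**Figure D4:**
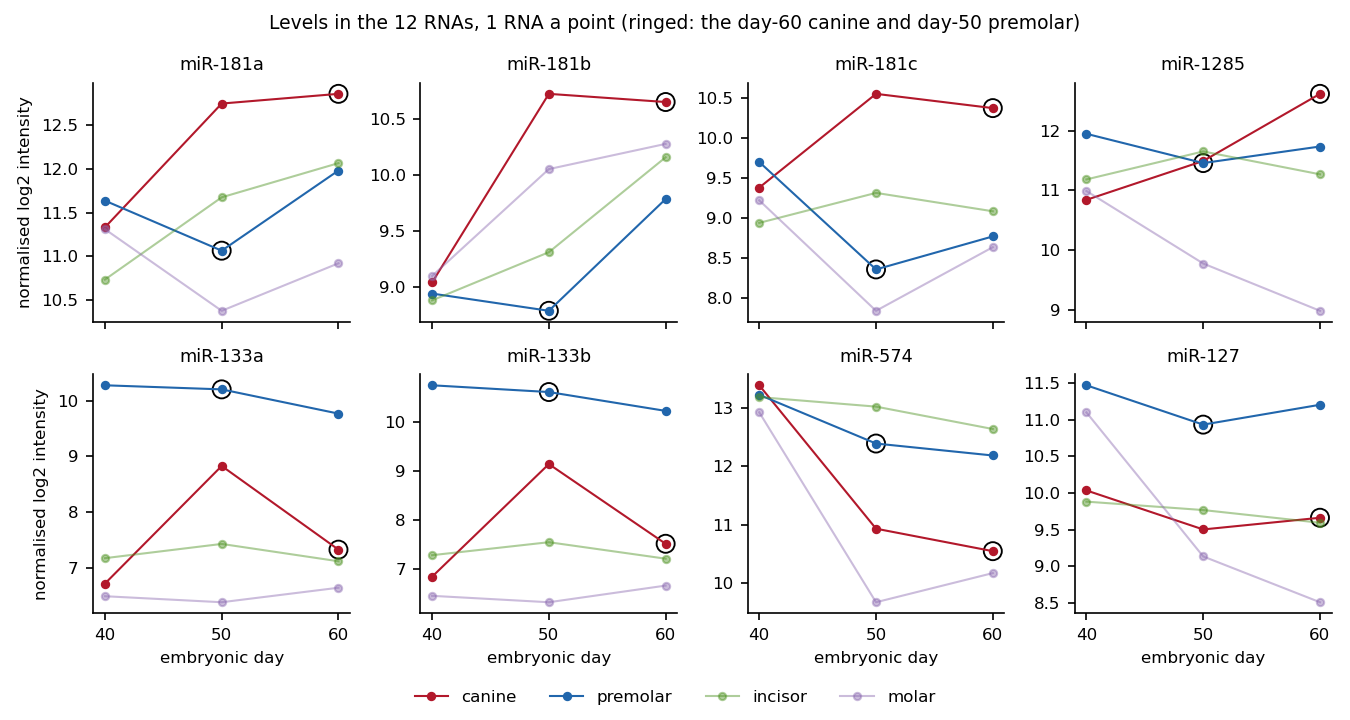
Normalised log2 intensity of 8 mature pig microRNAs in the 12 RNAs by embryonic day, 1 RNA a point, with the 2 RNAs of the array ringed. The premolar lies above the canine on all 3 days for miR-133a, miR-133b and miR-127, and the lines of the canine and premolar cross for miR-181a, miR-181c, miR-574 and miR-1285.

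**Figure D5:**
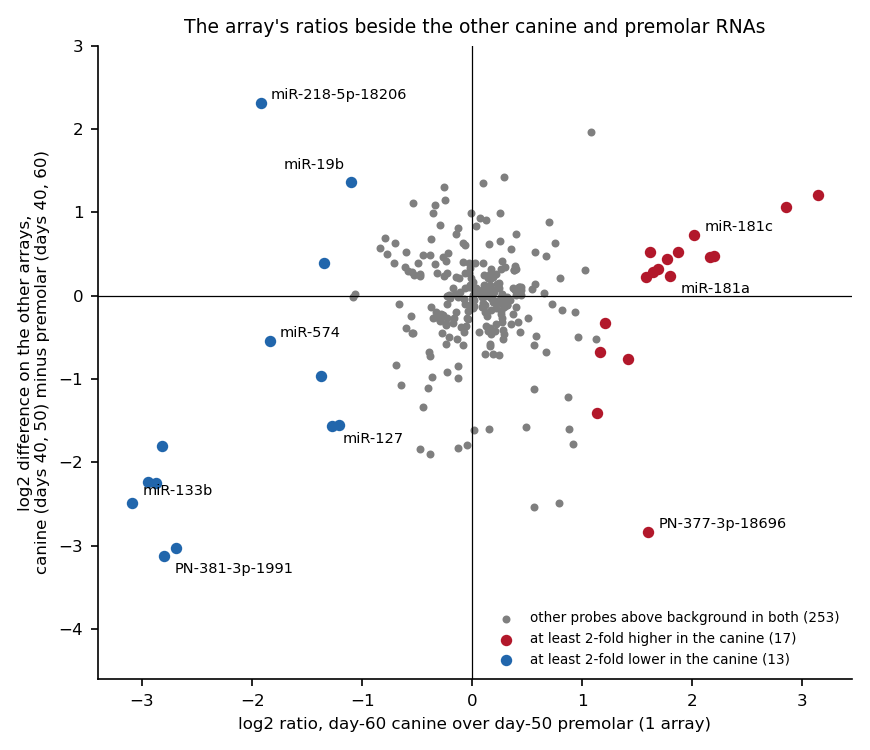
Log2 difference of the canine (days 40 and 50) minus the premolar (days 40 and 60) on the other arrays (vertical axis) against the log2 ratio of canine over premolar on the array (horizontal axis), 1 point a probe above background in both RNAs, plus miR-218-5p-18206. The miR-133 probes lie at the lower left, the higher probes of the miR-181 seed at the right between 0.23 and 1.20, and PN-377-3p-18696 at the lower right.

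To set the array's ratio beside a test, the 12 RNAs were fitted together in limma with tooth type, day and dye as terms and the array as a random block. The days of a tooth type then stand in for replicates. The p-values therefore rest on scatter among single RNAs, with no information on animals. The fit includes the array itself, so it is no independent check of the ratios. Of 656 probes, 0 rose and 5 fell (0.762%) in the canine relative to the premolar at an adjusted p of 0.05. At an unadjusted p under 0.05 there were 51 higher and 44 lower. Leaving out the day-40 canine gave 9 higher and 7 lower, and leaving out the day-50 canine gave 0 higher and 4 lower. Leaving out the day-60 canine or any 1 premolar RNA gave 0 of either.

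The 5 probes were the 4 miR-133 probes and PN-485-3p-375, each with a limma adjusted p of 0.0460. ssc-miR-133b fell by 2.70 ± 0.38 (log2, SE) and ssc-miR-133a by 2.46 ± 0.35. PN-485-3p-375, at -1.07 ± 0.14, read 7.63, 7.92 and 7.85 in the canine on days 40, 50 and 60, against 9.07, 9.22 and 8.40 in the premolar. Each of these calls was lost in 9 of 12 alternative settings for the miR-133 probes and in 11 of 12 for PN-485-3p-375, with adjusted p up to 1.00, the array left out among them. The sign was kept in all 12 settings, with differences of -5.81 to -2.39 for ssc-miR-133b, -5.30 to -2.19 for ssc-miR-133a and -1.52 to -0.73 for PN-485-3p-375. The next mature pig probes did not pass: ssc-miR-127 had -1.39 ± 0.26 (limma adjusted p = 0.0806), ssc-miR-574 had -1.81 ± 0.36 (adjusted p = 0.0935) and ssc-miR-181b had 1.38 ± 0.25 (adjusted p = 0.0768). Without the array described, the difference of ssc-miR-574 was 2.46 and that of ssc-miR-181b -1.09. Both signs were turned relative to the main fit, as for 21 of the 30 listed probes. The remaining canine and premolar RNAs then carry different dyes throughout.

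The day term of the same fit bears on the part of the ratio that goes with age. Day 60 minus day 50 over the 4 tooth types had 0 probes past the threshold in limma (smallest adjusted p = 0.146), and 32 higher and 61 lower at an unadjusted p under 0.05. For ssc-miR-181a the estimated day difference was 0.72 ± 0.36 and the canine minus premolar difference 0.82 ± 0.40, neither of which passed. Without the array the second of these was -0.65. For ssc-miR-133b the day difference was -0.11 ± 0.35. Headings and labels disagree about the column order of the array with the day-50 and day-60 molars. Without that array the smallest adjusted p of the day term in limma was 0.435, with 21 probes at an unadjusted p under 0.05. The part of age in the ratios of the array was not tested.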

How the data were processed

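Small RNAs were filtered from kit-purified total RNA, tailed with poly(A) and tagged for Cy3 or Cy5 staining, per the labels. The sources used here give no scanner, image software or genome build. The deposited spot file holds mean spot intensities on a linear scale in 2 density columns, per the file headers, with no background removed, and commas between digits were taken out. The authors also deposited a table of processed log2 values, whose scaling and centring stay unknown; its values had r = 0.72 with the ratios computed here over all 742 probes and 0.95 over the 282 above background in both RNAs, and served as an alternative.

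A background surface (robust loess, span 0.3) through the 716 blank spots of each channel was removed, followed by normexp (offset 50), loess within the array with controls at weight 0, and Aquantile scaling between arrays; the 4 spots were averaged. RNAs were assigned by column heading and dyes by the labels. Headings and labels disagree about the column order of the array with both later molars. The number of arrays, 6, limits the precision. limma 3.58.1 (statmod 1.5.0, R 4.3.3) was fitted to the 656 probes detected in at least 3 RNAs, with Benjamini-Hochberg adjustment and a threshold of 0.05, two-sided. The correlation within arrays was 0.83, with 5 residual degrees of freedom. The procedures were run on simulated data. For the limma fit these held no day or dye effect and the same spread in every probe. They therefore do not check the calls made here.

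Named were all mature pig probes meeting the size rule, the 5 highest and 5 lowest other probes meeting it, the 8 most abundant mature pig probes, the extremes of each of 20 lists, probes sharing a seed with a named mature pig probe, and the marker lists. The members, lists and tests were chosen with earlier results of these data known. The detection limit from silent control oligos, the lists with PN probes and the comparison with the other canine and premolar RNAs were added after the data had been seen; this comparison was first made over all 3 days, which includes the RNAs that the size rule used, and both versions are given.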

Additional observations from a re-analysis of the deposited data

How the results depend on the processing

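On the array, no ratio of the 30 probes turned sign under another background, offset, summary or normalisation or in the authors' values. In 4 settings of background and normalisation 23 of the 30 kept to the size rule throughout; ssc-miR-19b kept to it in 1 of 4, miR-126-3p-3530, miR-214-5p-15474, PN-203-3p-308 and PN-485-3p-375 in 2, and ssc-miR-127 and PN-141-3p-21462 in 3. The count of 13 lower probes was 8 with median centring. With the authors' values 68 of the 732 probes were higher and 80 lower. These counts took 1 value per probe past 2-fold and could not ask that all 4 spots pass. They are therefore not on the same footing as the size rule. In limma, the 5 lower calls became 0 with median centring, without the array block, without the filter and without the array described. Without the later molar array 1 probe, ssc-miR-127, was called lower and none of the 5 remained. Without scaling between arrays 1 probe was higher and 4 were lower, and 4 of the 5 calls remained. Leaving out each canine or premolar RNA gave 0 to 9 higher and 0 to 7 lower. The correlation within arrays ran from -0.16 to 0.97 over these settings. Without the array described, the remaining canine RNAs were all Cy3 and the remaining premolar RNAs all Cy5, and 21 of the 30 limma differences turned sign: miR-126-3p-3530 -1.90, miR-181a-5p-39048 -1.76, miR-181a-5p-39722 -1.33, miR-181b-5p-24202 -0.94, miR-181c-5p-1684 -0.81, miR-181d-5p-4330 -0.54, miR-451-5p-792 -0.84, PN-181b-5p-4329 -0.46, PN-181c-5p-27101 -0.0768, ssc-miR-1285 -1.15, ssc-miR-181a -0.65, ssc-miR-181b -1.09, ssc-miR-181c -1.01 and ssc-miR-19b -2.33, and on the positive side miR-214-5p-15474 2.28, PN-141-3p-21462 2.84, PN-200a-3p-145 3.79, PN-300-3p-13997 0.57, PN-377-3p-18696 2.07, PN-381-3p-1991 0.79 and ssc-miR-574 2.46. PN-141-3p-21462 also turned, to 0.155 with median centring, 0.19 without the block and 0.014 without the later molar array, and PN-203-3p-308 to 0.0197 without scaling between arrays. A turned sign is relative to the main limma fit, not to the array ratio. In that fit PN-200a-3p-145 (-1.18), PN-377-3p-18696 (-2.43) and PN-141-3p-21462 (-0.16) were lower in the canine, though higher on the array. miR-218-5p-18206 (2.02) and ssc-miR-19b (0.17) were higher in the canine, though lower on the array. The others of the 30 had the same direction in both. On leaving out each canine or premolar RNA in turn, 8 of the 30 turned sign at least once: miR-126-3p-3530 ran from -1.03 to 1.25, miR-214-5p-15474 from -2.63 to 0.21, miR-451-5p-792 from -0.34 to 2.05, PN-141-3p-21462 from -0.39 to 0.86, PN-200a-3p-145 from -1.43 to 0.53, PN-203-3p-308 from -0.84 to 0.36, ssc-miR-1285 from -0.55 to 0.87 and ssc-miR-19b from -0.97 to 0.90. The cause of these changes was not tested. No paired analysis was possible because the labels number no replicates; the days that the tooth types share entered the fit as a term. Of 732 probes detected, 450 were not above background in the canine, which limits what can be said of them.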
